A study of Mus musculus with 3 samples.

Results

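The microRNA (miRNA) gene loci of the mouse autosomes were taken as every gene that the GENCODE M1 annotation of the mm9 genome types as miRNA. This gave 1468 loci, of 1577 miRNA genes on all chromosomes and 37310 genes of all types, and the 109 loci on X and Y were left out. Of the 1468 loci, 482 carried a miRNA name and 986 carried only the accession of a genomic clone. gDNA of E14 mESCs, a mouse embryonic stem cell line grown with serum, LIF and the inhibitors PD0325901 and CHIR99021, was sequenced in 1 TAPSβ, 1 CAPS and 1 PS library. All 3 libraries came from untreated cells of this line, so there were no groups and no replicates, and all intervals below cover counting error only. TAPSβ reads 5mC as T after 5hmC is blocked with glucose. CAPS reads 5hmC as T after chemical oxidation, and PS reads 5fC and 5caC as T. TAPSβ and CAPS read 5fC and 5caC as T as well. In the paper's spike-ins no conversion was complete, and levels here were not corrected for that. For each locus the modified and unmodified base calls at CpG cytosines within 1 kb of the annotated hairpin were pooled, and the level is the percent of base calls read as modified. The median depth of an autosomal cytosine with reads was 13 base calls in TAPSβ and 9 in the other libraries.

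A miRNA gene is transcribed as a long primary transcript. Drosha cuts a hairpin from it and Dicer releases a mature miRNA, whose seed (bases 2 to 8) pairs with target mRNAs. Many miRNAs lie in introns of protein-coding genes, others have transcripts of their own, and neighbouring hairpins are often cut from 1 transcript. Unmethylated CpGs are typical of active or CpG-rich promoters, and TET enzymes oxidise 5mC to 5hmC and further to 5fC and 5caC. A primary transcript can start far from its hairpin, so the window holds a promoter at some loci only.

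The mature sequences below belong to the clusters that the levels turn on, and they are shown because families with the same or nearly the same seed lay in windows of very different methylation. They are the RefSeq entries (GRCm38.p6 table), with the seed in capitals. By symbol or synonym, 356 of the 482 miRNA-named loci matched that table, and in all 356 a mature sequence was found letter for letter in the mm9 hairpin. miR-302a-3p and miR-292a-3p had no entry. The seed AAGUGCU was shared by 5 loci of the clusters Mir290 to Mir295 and Mir302b to Mir367, with 3 near relatives beside them.
miR-291a-3p: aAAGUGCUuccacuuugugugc
miR-294-3p: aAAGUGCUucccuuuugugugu
miR-295-3p: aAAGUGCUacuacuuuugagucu
miR-302b-3p: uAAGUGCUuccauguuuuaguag
miR-302d-3p: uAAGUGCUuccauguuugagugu
miR-290a-3p: aAAGUGCCgccuaguuuuaagccc
miR-291b-3p: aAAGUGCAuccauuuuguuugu
miR-302c-3p: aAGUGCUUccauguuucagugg

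The seed AAAGUGC, which holds most of the same letters shifted by 1 base, was shared by members of Mir17-92 and of its paralogue Mir106b/25. The seed AUUGCAC joined Mir92-1, Mir25 and Mir367 with Mir92b (1.91% in TAPSβ) and Mir32 (42.7%), whose sequences are not shown. The seed ACAUUCA joined the Mir181 loci.
miR-17-5p: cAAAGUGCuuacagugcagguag
miR-20a-5p: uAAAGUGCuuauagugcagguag
miR-106b-5p: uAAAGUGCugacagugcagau
miR-93-5p: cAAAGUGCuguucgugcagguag
miR-92a-3p: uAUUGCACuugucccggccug
miR-25-3p: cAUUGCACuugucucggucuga
miR-367-3p: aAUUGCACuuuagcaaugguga
miR-181a-5p: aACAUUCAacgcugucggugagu
miR-181b-5p: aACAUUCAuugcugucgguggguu

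Hairpins of the same clusters are shown with their CpGs in capitals, since these are the cytosines that were read. They are mm9 sequence on the strand of the miRNA. In the order printed they lie at chr7:3218627-3218709 (+), chr7:3220344-3220423 (+), chr3:127248414-127248482 (+), chr3:127248651-127248725 (+), chr2:38708255-38708330 (+) and chr5:138606549-138606632 (-).
Mir290: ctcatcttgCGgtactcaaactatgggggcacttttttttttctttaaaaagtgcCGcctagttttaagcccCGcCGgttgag
Mir293: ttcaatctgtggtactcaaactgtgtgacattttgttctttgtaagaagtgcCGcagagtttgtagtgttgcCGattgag
Mir302a: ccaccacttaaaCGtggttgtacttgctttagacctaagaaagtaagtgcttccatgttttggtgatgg
Mir367: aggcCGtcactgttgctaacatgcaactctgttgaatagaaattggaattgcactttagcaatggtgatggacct
Mir181a-2: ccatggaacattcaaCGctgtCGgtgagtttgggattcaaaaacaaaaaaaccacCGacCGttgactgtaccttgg
Mir25: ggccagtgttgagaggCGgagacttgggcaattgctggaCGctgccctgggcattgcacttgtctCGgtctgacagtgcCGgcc

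The 4 CpGs of the Mir290 hairpin held 0 modified of 155 TAPSβ base calls, which allows a level of up to 1.94%, and the 2 CpGs of Mir293 held 0 of 79, which allows up to 3.80%. The CpG of the Mir302a hairpin, at its base 13, held 0 modified of 42 TAPSβ calls, which allows up to 7.14%, and 2 of 25 CAPS calls. The CpG at base 5 of Mir367 held 13 of 36 TAPSβ calls. In Mir181a-2 the 4 CpGs held TAPSβ levels between 31.8% and 41.5%, and the CpG at base 60 held 8 modified of 26 CAPS calls. In Mir25 the TAPSβ level was 51.7% at base 17, 19.4% at base 40, 5.88% at base 66 and 12.1% at base 80, with 29 to 34 calls at each CpG. Of all 1468 hairpins, 965 held a CpG, so at the other hairpins the levels describe flanking sequence alone.

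Pooled over all windows, 37.1% of TAPSβ base calls were modified (37.0% to 37.2%, exact binomial interval), below the 57.4% of all autosomal CpG cytosines. The CAPS level of the windows was 3.01% (2.97% to 3.05%) and the PS level 0.256% (0.245% to 0.268%), beside 3.15% and 0.240% over the autosomes. The false-positive rates against which single cytosines were tested were 0.72% in CAPS and 0.27% in PS, so both pooled PS levels lay below that rate. The single locus was different from the pool. Among the 1371 loci with at least 100 TAPSβ and 100 CAPS base calls, called well covered here, the median TAPSβ level was 65.7% (quartiles 49.2% and 72.3%), close to the median of 67.8% over 1055097 equally well covered 2-kb tiles of the autosomes. Windows dense in CpG carry more of the pooled calls, and the 91 windows with 160 or more CpG cytosines had a median of 2.55%. The remaining 97 loci were too thinly covered, and 12 of them had no TAPSβ or no CAPS call at all.

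By position, 637 loci were intergenic, 633 intronic and 198 overlapped an exon. Among loci with a miRNA name, the median TAPSβ level was 62.6% in the 150 well-covered intergenic, 67.3% in the 212 intronic and 54.5% in the 92 exonic loci. Their spread was wide, and the lower quartile of the intergenic loci was 14.3% against 54.8% in the intronic ones. Of the 212 intronic loci, 57 lay in the 1 Sfmbt2 cluster on chromosome 2, in windows that mostly overlap. All 57 were at 58.4% or more and so raise the intronic lower quartile. These classes were not recomputed with each cluster counted once. Loci known only by a clone accession had a median of 66.3%, and their lower quartile was 53.4%. The median CAPS level lay between 2.45% and 3.22% in all of these classes. Within 10 kb of each other stood 369 loci in 87 clusters, with a median TAPSβ level of 67.5% against 65.1% in the loci that stood alone. With each of the 86 well-covered clusters counted once the median was 59.4%, so the direction depends on whether loci or clusters are counted.

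Well-covered loci with a TAPSβ level under 20% numbered 178 (13.0%), in 149 separate places, while 3.03% of the 2-kb tiles were as low. Of these loci, 91 had a miRNA name. An annotated transcript start lay within 1 kb of 104 of the 178. Where a start lay in the window, 59.1% of the loci were low against 35.7% of tiles with a start, and where none did, 11.6% of the miRNA-named loci, 3.76% of the clone-named loci and 1.75% of the tiles were low. The 43 miRNA-named low loci without a start, members of a cluster counted singly, stood a median of 7918 bp from the nearest annotated one, and 19 of them more than 10 kb away. The same shares were then set side by side at like CpG density. Where a start lay in the window, 13 of 52 loci with 40 to 79 CpG cytosines were low (9.01% of tiles), 20 of 37 with 80 to 159 (54.1%, below the 65.3% of tiles), and 70 of 70 with 160 or more (98.8% of tiles). The 13 loci lay in 6 of 39 separate places. Among windows with 160 or more CpG cytosines and no start, 91.7% of 12 miRNA-named loci and 83.6% of tiles were low. Among those with 40 to 79, 8.62% of 174 miRNA-named loci, 3.13% of 320 clone-named loci and 2.72% of tiles were low. These 8.62% are 15 loci, in which members of a cluster count singly, and by separate places they are 10 of 113 (8.85%), beside 10 of 297 (3.37%) for clone-named loci.

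**Figure D1:**
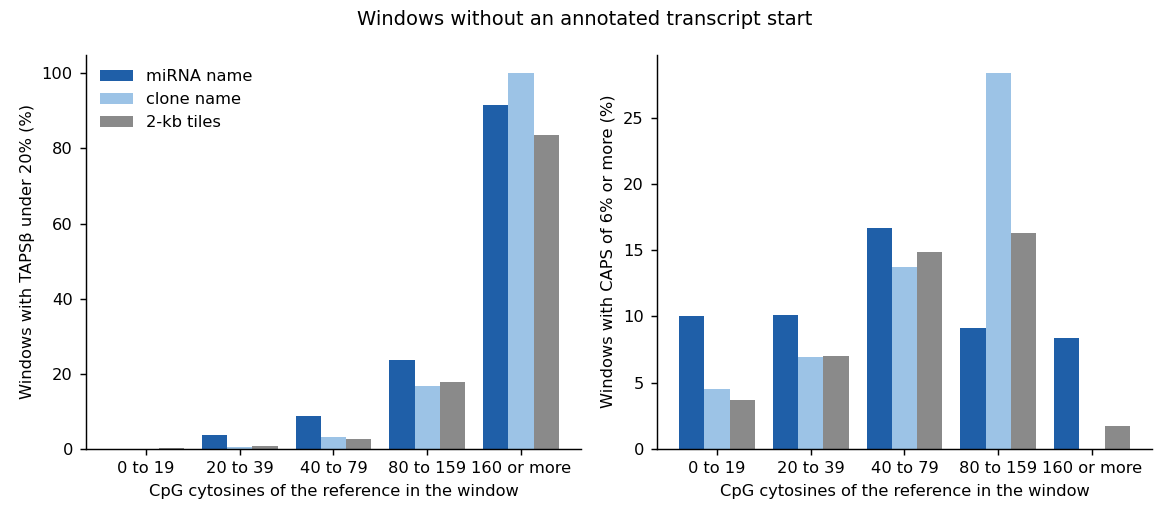
Share of well-covered windows without an annotated transcript start that had a TAPSβ level under 20% (left) or a CAPS level of 6% or more (right), by the number of CpG cytosines of the reference in the window. Bars stand for miRNA-named loci (20, 109, 174, 55 and 12 windows from left to right), clone-named loci (89, 347, 320, 60 and 9) and all 2-kb tiles; with 80 to 159 cytosines 23.6%, 16.7% and 17.9% were low, and with 160 or more 91.7%, 100% and 83.6%.

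Along the hairpin, the pooled TAPSβ level of miRNA-named loci was lowest 250 to 500 bp on the 5′ side, at 27.3%. It was 40.7% at 4750 to 5000 bp on that side and 48.9% at 1000 to 1250 bp on the 3′ side, so the dip leaned toward the 5′ side. Intergenic miRNA-named loci reached 20.7% in the same bin and intronic ones 40.4%. Loci with a clone name had their lowest level, 32.8%, in the first 250 bp on the 3′ side. The CAPS level of miRNA-named loci stayed between 2.54% and 3.57% in all bins out to 5000 bp on both sides. Loci of a cluster lie in each other's bins, so their cytosines were counted more than once here.

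**Figure D2:**
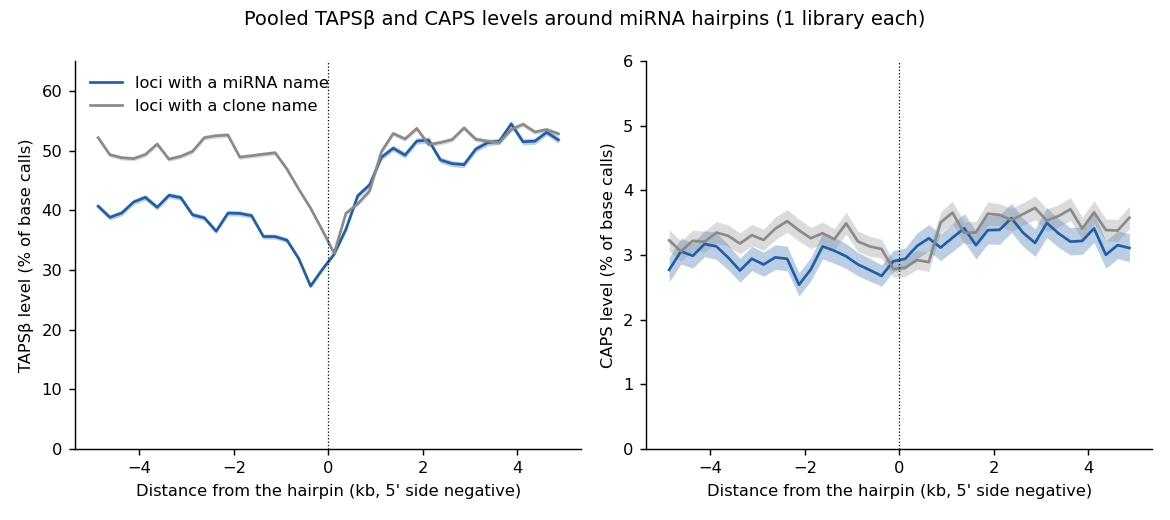
Pooled TAPSβ (left) and CAPS (right) levels in percent of base calls, in 250-bp bins around the hairpin, oriented by its strand, for miRNA-named and clone-named loci, with exact binomial 95% intervals shaded (too narrow to see in TAPSβ). In TAPSβ the miRNA-named loci dip to 27.3% just 5′ of the hairpin, while the CAPS curves stay near 3%.

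Windows were also tested against their own flanks, 2 to 5 kb from the hairpin on both sides, with Fisher's exact test (two-sided) on base calls and Benjamini-Hochberg adjustment over all loci and tiles. In TAPSβ, 428 of 1403 loci (30.5%) were lower than their flanks at an adjusted p under 0.05, beside 22.2% of all windows tested, and 449 (32.0%) were higher, beside 29.3%. In CAPS, 96 of 1370 loci (7.01%) were lower, beside 3.00%, and 85 (6.20%) were higher, beside 4.36%. Among miRNA-named loci 42 of 454 were lower and 42 higher in CAPS. Members of a cluster count singly in these shares and share base calls and flanks, while tiles do not overlap. Shares by separate place were not computed. Each test compares regions within 1 library, and a call says nothing about variation between cultures.

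CAPS levels of 6% or more were found at 160 well-covered loci (11.7%), in 147 separate places and 62 with a miRNA name, beside 8.69% of the tiles. At like CpG density the shares lay closer. With 0 to 19 CpG cytosines 5.41% of loci and 3.73% of tiles were high, and with 20 to 39 7.86% and 7.04%. With 40 to 79 they were 16.7% and 14.9%, with 80 to 159 16.4% and 14.3%, and with 160 or more 1.10% and 0.594%. Of miRNA-named loci with 80 to 159, 9.46% were high. The CAPS level was tied to the TAPSβ level as a description over loci. At TAPSβ levels under 5% the median CAPS level of the 47 miRNA-named loci was 0.921%. It was 6.02% in the 32 loci between 20% and 40% and 5.65% in the 64 loci between 40% and 60%, against 5.33% and 3.62% in tiles of the same TAPSβ range. It was 2.70% in the 252 loci between 60% and 80%, beside 2.29% in tiles. Loci both low in TAPSβ and high in CAPS numbered 5: Mir125a, Mir128-2 and 3 clone-named loci, named here after their values were seen. All 5 had TAPSβ levels of 5% to 20%. In that range 6.25% of loci were high in CAPS, beside 9.61% of tiles. At single cytosines, 1060 of 65041 tested in the windows were called modified in CAPS by a one-sided exact binomial test (1.63%), near the 1.64% of the genome. In PS, 52 were called (0.0759%), beside 0.0791% of the genome. A call at this depth needs a high share of modified reads. Cytosines with at least 20% of 5 or more PS reads modified were then left out and the adjustment was redone, which left 1 call.

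**Figure D3:**
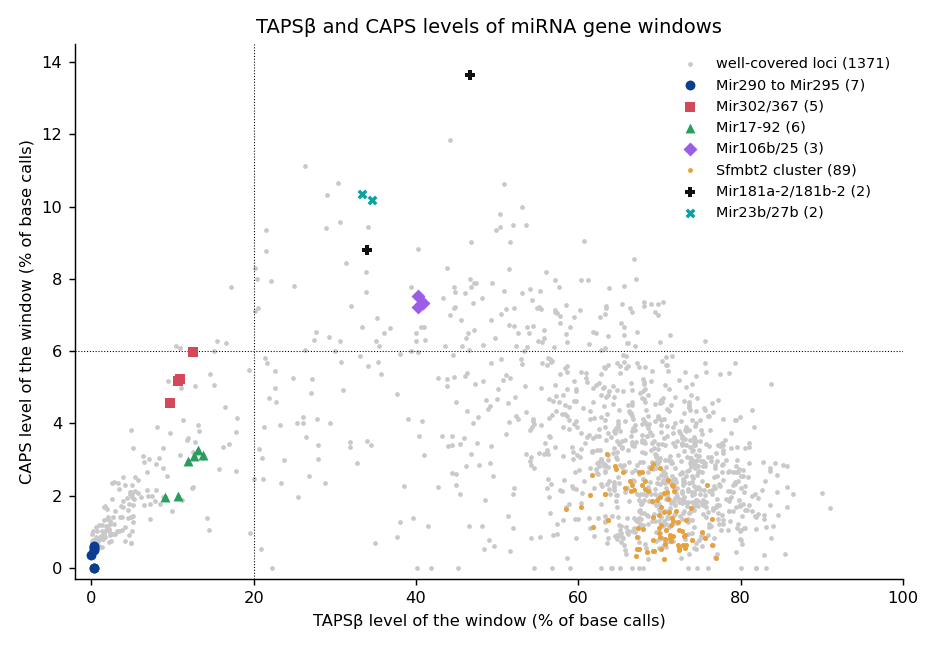
CAPS level against TAPSβ level (percent of base calls) of the window of each of 1371 well-covered loci, with 7 clusters marked and the limits of 20% and 6% dotted. The Mir290 to Mir295 loci sit at the origin, Mir302b to Mir367 at TAPSβ levels of 9.75% to 12.6%, Mir181a-2/Mir181b-2 and Mir23b/27b near the top, and the Sfmbt2 loci between 58.4% and 77.0%.

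The cluster Mir290 to Mir295 encodes some of the most abundant miRNAs of mouse ES cells. Its 7 hairpins span 2216 bp of intergenic sequence on the plus strand (chr7:3218627-3220842, mm9), with the nearest annotated start, of Nlrp12, 28698 bp or more away. In its merged window 11 of 2943 TAPSβ base calls (0.374%, 0.187% to 0.668%), 8 of 1828 CAPS calls (0.438%, 0.189% to 0.860%) and 7 of 1788 PS calls (0.391%, 0.158% to 0.805%) were modified, the CAPS level below its false-positive rate and the PS interval including its own, from 162 of 168 reference cytosines. It was the lowest in TAPSβ of the 86 well-covered clusters. Here and in the other clusters the windows of neighbouring members overlap and share base calls, so members are not separate measurements. TAPSβ levels ran from 0 of 917 calls at Mir293, which allows up to 0.327%, to 0.374% at Mir290. All 7 were lower in TAPSβ than their flanks, beside 22.2% of all windows tested, and the flanks ranged from 12.3% at Mir290 (exact test, adjusted p = 6.15e-64) to 20.1% at Mir291b and at Mir293. In CAPS 6 of the 7 were lower than their flanks, beside 3.00% of all windows, for example 0.528% against 3.68% at Mir290 (exact test, adjusted p = 4.96e-06), and Mir295, with 0 of 313 calls (allowing up to 0.958%) against 2.07%, was not called (adjusted p = 0.0646). None of the 162 cytosines with CAPS reads in the merged window was called, beside 1.64% of all tested cytosines of the genome, so with so few cytosines this says little.

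Beyond the hairpins the unmethylated stretch went on. In 500-bp bins counted from the 5′ end of Mir290, the TAPSβ level was under 20% in every bin with 20 or more calls from 2500 bp on the 5′ side to 4000 bp on the 3′ side. Over these 6500 bp it was 1.43% (1.07% to 1.88%) and the CAPS level 0.848%. The bin from 3500 to 3000 bp on the 5′ side held 24.7%, and the bins between 6000 and 4000 bp on that side were low again, at 1.09% to 1.93% in 3 of them and 0 of 30 calls in the other, which allows up to 10%. On the 3′ side the level rose from 11.8% at 3500 bp through 26.4% and 45.3% to 57.7% at 5000 to 5500 bp. In the same 4 bins CAPS was 3.25%, 7.14%, 8.82% and 0.769%, from 70 to 154 calls each.

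The cluster Mir302b to Mir367 encodes miRNAs known from primed pluripotent cells, of which miR-302b-3p and miR-302d-3p have the seed AAGUGCU. Its 5 hairpins lie within 580 bp in an intron of Larp7 (chr3:127248146-127248725, +), 7541 to 8047 bp from the nearest annotated start. In the merged window 112 of 906 TAPSβ calls (12.4%, 10.3% to 14.7%), 35 of 596 CAPS calls (5.87%, 4.12% to 8.07%) and 10 of 605 PS calls (1.65%, 0.795% to 3.02%) were modified. Its TAPSβ level was thus above that of Mir290 to Mir295 with intervals that did not overlap, and so was its CAPS level. All 5 windows were lower in TAPSβ than flanks of 39.9% to 41.0%, beside 22.2% of all windows, and none differed from its flanks in CAPS (exact test, adjusted p from 0.917 to 1). The window was uneven. The bins from 500 bp on the 5′ side to 500 bp on the 3′ side of the first hairpin held 0 modified of 241 and 0 of 52 TAPSβ calls, which allow up to 1.24% and 5.77%, and the following bins held 18.1%, 19.5% and 76.3%. CAPS in the 5 bins was 2.08%, 5.88%, 5.37%, 10.3% and 1.39%. The PS calls that were modified lay mostly in the bin from 1000 to 1500 bp, with 6 of 214.

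The cluster Mir17-92, growth-promoting miRNAs whose host gene is bound by Myc, lies in the annotated transcript Mir17hg (chr14:115442893-115443728, +). Its merged window held a TAPSβ level of 10.6% (8.60% to 13.0%), a CAPS level of 2.66% (1.46% to 4.43%) and 1 modified of 580 PS calls. In contrast to the previous clusters, its flanks were lower still: 5 of the 6 windows were above their flanks, beside 29.3% of all windows, for example 13.8% against 5.10% at Mir92-1 (exact test, adjusted p = 2.44e-13) and 10.7% against 7.28% at Mir18 (adjusted p = 0.00775). Mir17 itself, at 9.05% against 8.33%, was not called (exact test, adjusted p = 0.661). In CAPS 4 of the 6 windows were higher than their flanks, beside 4.36% of all windows, and none was lower. The TAPSβ level rose along the transcript. The bins from 3500 to 500 bp on the 5′ side of Mir17 held at most 3 modified of 159 to 1635 calls each. The level was 5.02% over the first 500 bp from its start, and the next 4 bins held 43 of 239 calls, 20.6%, 34.9% and 63.3%. The paralogous cluster Mir106b/25, in Mcm7 (chr5:138606549-138607046, -), which encodes a replication factor, was at 41.6% (38.8% to 44.5%) in TAPSβ and 6.72% (5.04% to 8.74%) in CAPS, with 0 of 853 PS calls, which allows up to 0.352%. Its 3 windows held CAPS levels of 7.23% to 7.51% and were higher than their flanks in TAPSβ and in CAPS, beside 29.3% and 4.36% of all windows, for example 7.51% against 2.61% at Mir93 (exact test, adjusted p = 3.37e-05). So the seed AAAGUGC was encoded at levels of 9.05% and 12.6% in Mir17 and Mir20a and of 40.3% and 40.9% in Mir93 and Mir106b.

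**Figure D4:**
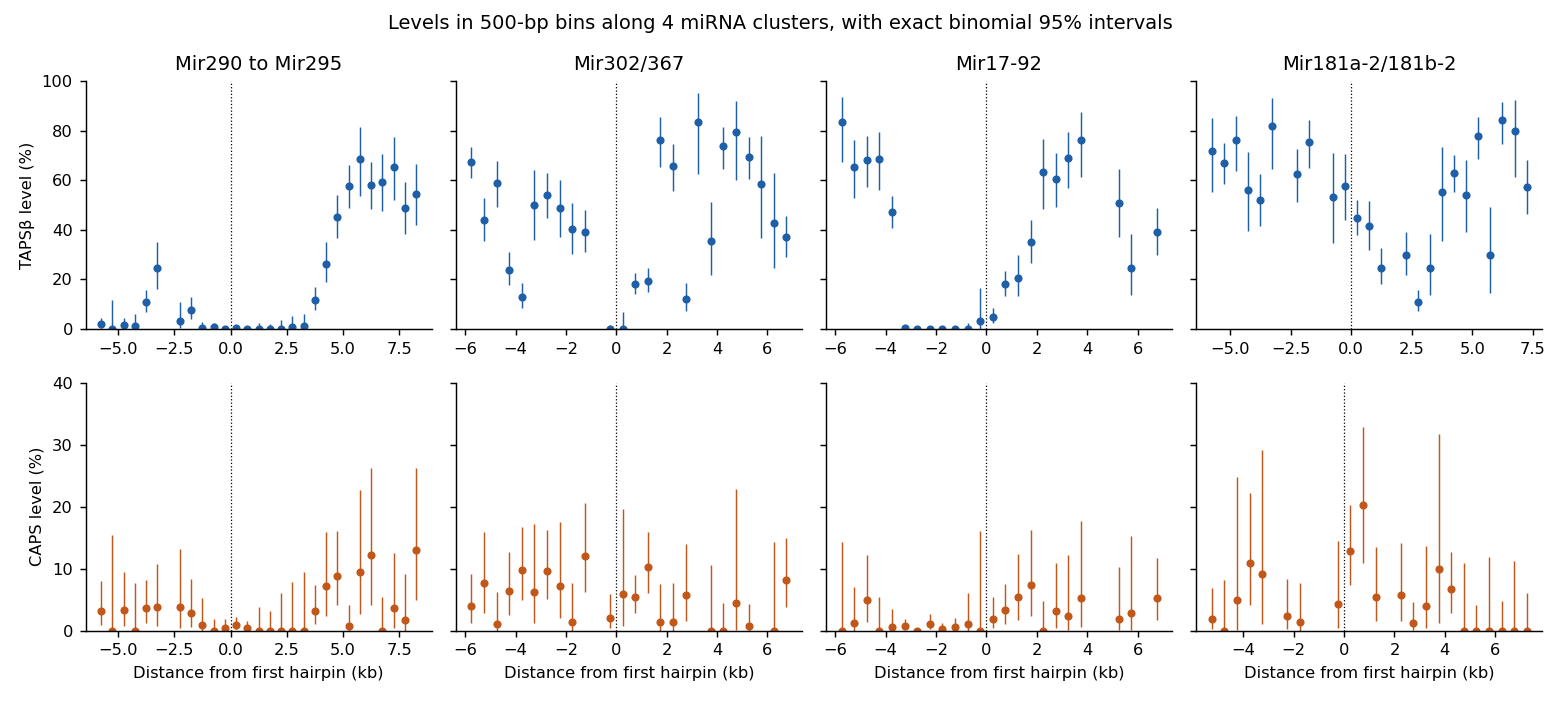
TAPSβ (top) and CAPS (bottom) levels in percent, in 500-bp bins with 20 or more base calls, against the distance from the 5′ end of the first hairpin, for 4 clusters, with exact binomial 95% intervals. Mir290 to Mir295 sits in a long stretch near 0, Mir302b to Mir367 in a short dip, Mir17-92 at the 3′ edge of an unmethylated stretch, and Mir181a-2/Mir181b-2 on a slope where CAPS reached 20.3%.

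Among clusters the highest CAPS level was that of Mir181a-2/Mir181b-2, miRNAs known from lymphocytes and brain, in an intron of Nr6a1 (chr2:38708255-38709438, +). There 10.7% of 355 CAPS calls (7.69% to 14.4%), 38.3% of 605 TAPSβ calls (34.5% to 42.4%) and 0 of 366 PS calls, which allows up to 0.820%, were modified. Mir181a-2 alone held 13.6% of 242 CAPS calls, against 4.33% in its flanks (exact test, adjusted p = 0.000408). Of all windows tested, 4.36% were called higher than their flanks in CAPS. Its window had 4 cytosines called in CAPS, beside 1.64% of all tested cytosines of the genome. The cluster was chosen for its high CAPS level. The CAPS tests here reuse the base calls that picked it, so they are not separate support for a high level. In TAPSβ, Mir181a-2 held 46.7% and did not pass against flanks of 43.6% (exact test, adjusted p = 0.446). Mir181b-2, at 8.81% against 3.48% in CAPS, missed the threshold (exact test, adjusted p = 0.0844). The mature miR-181a-5p is also encoded by Mir181a-1, whose window held 6.11% of 311 CAPS calls and 57.0% in TAPSβ. The third pair of the family, Mir181c and Mir181d on chromosome 8, held TAPSβ levels of 3.85% and 3.34% and CAPS levels of 2.53% and 2.34%. The 3 pairs thus ran from unmethylated to intermediate.

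Mir23b and Mir27b, in an intron of 2010111I01Rik (chr13:63401780-63402604 with a clone-named neighbour), formed the cluster with the second highest CAPS level, 9.60% (7.44% to 12.1%), at a TAPSβ level of 33.8% and 0 of 870 PS calls, which allows up to 0.345%. In TAPSβ both were lower than their flanks of 56.2% and 58.7%, beside 22.2% of all windows tested. Their flanks were high in CAPS too, at 7.14% and 7.16%, and the difference was not called (exact test, adjusted p = 0.255 and 0.223). Mir141/200c, miRNAs that keep epithelial cells from mesenchymal change (chr6:124667932-124668408, -), held 8.03% (6.54% to 9.73%) in CAPS and 19.2% (17.5% to 21.0%) in TAPSβ. Both windows, which overlap, were called higher in CAPS than flanks of 3.96% and 4.34%, beside 4.36% of all windows tested. Mir205, of the same tissue, held 10.7% of 272 CAPS calls against 4.17% in its flanks (exact test, adjusted p = 0.00861). Mir205 and Mir23b/27b were among the 10 loci or clusters with the highest CAPS levels. The CAPS tests there reuse the base calls that ranked them, so they are not separate support for a high level. Mir141/200c is on the epithelial list, which was made with earlier results known. The other epithelial group was more methylated, at 61.8% in Mir200b, 63.4% in Mir200a and 70.0% in Mir429. Mir203, the last of the 7 epithelial loci listed, was low in both, at 8.49% in TAPSβ against flanks of 61.4% and at 1.76% in CAPS against 3.43% (exact test, adjusted p = 0.0304). Mir183 and Mir96, of sense organs, held 7.65% and 7.48% in CAPS with flanks at 1.63% and 1.70%, and their TAPSβ levels of 44.8% and 43.4% stood beside flanks of 3.74% and 4.02%. Mir182, the third hairpin of that cluster, held 5.26% in CAPS against 6.57% in its flanks (exact test, adjusted p = 0.817) and 24.9% in TAPSβ against 34.6%. Of the 86 well-covered clusters, 18 (20.9%) were under 20% in TAPSβ, beside 3.03% of tiles, and 12 of the 86 were at 6% or more in CAPS, beside 8.69%. Among these 12, AC137969.1/AC137969.2 and AC091333.2/AC091333.5 also held high PS levels, 3.22% and 3.64%. Merged cluster windows are longer than the tiles and often hold more CpG cytosines than the tile median of 30. The shares of clusters were not matched for CpG number. Of tiles with 40 to 79 cytosines 3.01% were under 20% in TAPSβ, and of those with 80 to 159 29.3%.

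Lists of miRNAs by tissue or locus showed how the levels were spread. Of the 7 loci with a let-7 name, a family that marks differentiated cells, 6 held 20.2% to 68.3% in TAPSβ. Clone-named loci were not searched for further members of the family. Mirlet7i was at 0.377% of 4512 calls, in an unmethylated stretch of 3000 bp with 412 CpG cytosines in its window and 90272 bp from the nearest annotated start. Mirlet7g, in an intron of Wdr82, held 20.2% and a CAPS level of 7.11%, and Mirlet7a-1 held 63.4% and 7.18%. The 6 loci listed as neural, a list made with earlier results known, were all under 20%, from 0.452% at Mir124a-3 to 12.8% at Mir9-2, and all 6 were CpG-rich, with 122 to 380 cytosines. Loci of other miRNAs known from brain were not on that list, and of these Mir128-1 held 77.2% and Mir181a-1 57.0%. The listed 6 were also lower than their flanks in TAPSβ, beside 22.2% of all windows, and 3 of them in CAPS, beside 3.00%. None of the 8 muscle loci was under 20% (63.8% to 77.2%), and their windows held 12 to 88 cytosines. Of all well-covered loci, 0% with 0 to 19 cytosines, 1.49% with 20 to 39 and 6.96% with 40 to 79 were low. With 80 to 159 cytosines 28.3% were low and with 160 or more 98.9%, so the 2 lists differ in CpG number. Of the muscle loci 5 were higher than their flanks, beside 29.3% of all windows, and 1 lower, beside 22.2%. The 6 Hox loci ran from 1.30% at Mir615 and 4.17% at Mir196b to 63.8% at Mir196a-1, where CAPS was 7.75%. Just outside and inside the limits stood Mir10a at 20.1% and Mir7b at 19.5% in TAPSβ, and Mir692-2a at 5.99% and Mir128-2 at 6.08% in CAPS. Of 3 blood loci, Mir150 was at 5.09%, Mir142 at 43.8% and Mir155 at 73.5%.

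The imprinted Dlk1 to Dio3 domain of chromosome 12, whose miRNAs are made from the maternal allele, held 57 loci with a median TAPSβ level of 74.6%, above the 65.7% of all loci. Of these, 10 were at 80% or more, beside 60 of the 1371 well-covered loci, the highest being Mir379 at 84.7%. Only Mir1247, at the Dio3os start, was low, at 1.37% of 5603 calls. Mir1188 in Rian held 39.1% against 59.4% in its flanks. Against their flanks, 16 of the 57 were lower, beside 22.2% of all windows, and 14 higher, beside 29.3%. The CAPS levels had a median of 3.24%, and 3 of the 57 were at 6% or more, beside 11.7% of all loci and 8.69% of tiles, of which Mir370 in Rian held 6.94%. Reads were not assigned to alleles, so an intermediate level cannot be split into parental parts. At other imprinted genes Mir675, in H19, held 71.5%, Mir335, in Mest, 59.9%, and Mir483, in Igf2, 34.5%.

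**Figure D5:**
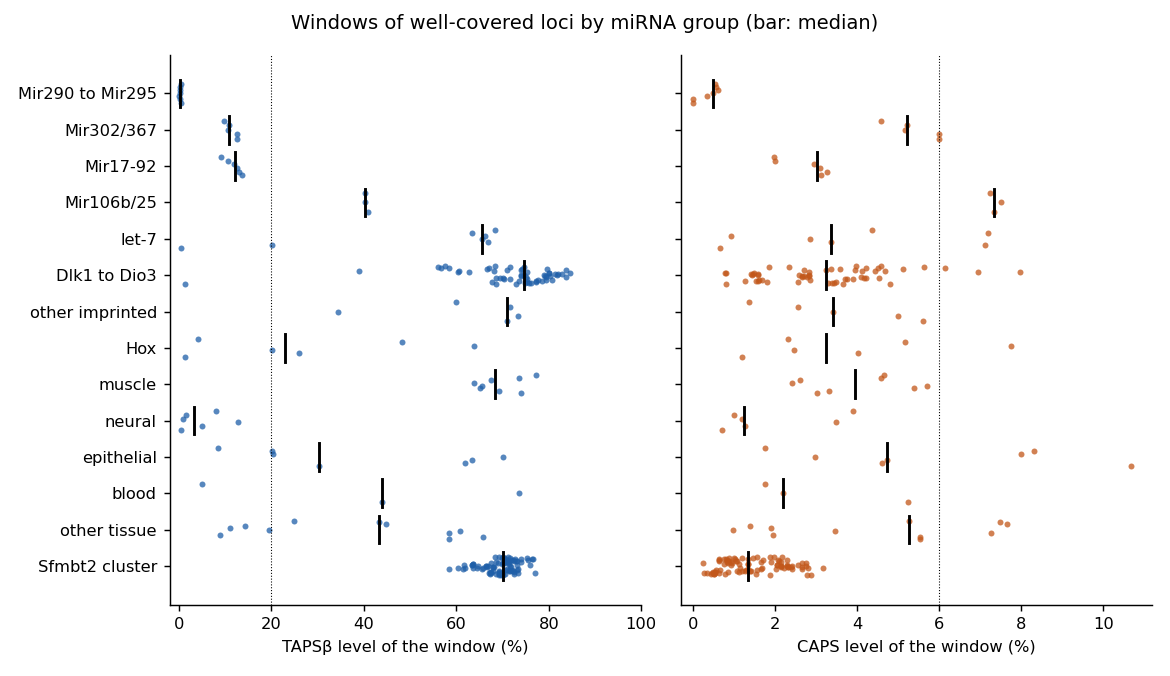
TAPSβ (left) and CAPS (right) levels in percent of each well-covered locus, by list, with the median as a bar and the limits of 20% and 6% dotted. The Mir290 to Mir295, Mir302b to Mir367, Mir17-92 and neural loci sit under 20% in TAPSβ, the muscle, Dlk1 to Dio3 and Sfmbt2 loci mostly above 60%.

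The largest cluster, 119 hairpins in 52993 bp of an intron of Sfmbt2 on chromosome 2 (chr2:10386914-10439906), is a rodent expansion of repeated miRNA units and lies in a gene imprinted in the placenta. Of the 119 loci 73 had a miRNA name and 89 were well covered. Only 79.1% of the 1004 reference cytosines in its windows were listed with TAPSβ reads, against 94.5% over all loci, and reads that map to several units are removed by a mapping-quality limit, so values of single units are uncertain. The merged windows held 69.8% (68.9% to 70.7%) in TAPSβ, 1.47% (1.22% to 1.77%) in CAPS and 0.285% (0.179% to 0.431%) in PS. The 89 windows were even, from 58.4% to 77.0% in TAPSβ and from 0.239% to 3.16% in CAPS, and none was under 20% in TAPSβ or at 6% or more in CAPS. Of the flank bases of these 89, 90.6% lay inside the cluster, so the test against flanks compares the cluster mostly with itself; it called 9 lower in TAPSβ, beside 22.2% of all windows tested, and 11 higher, beside 29.3%. The CAPS level was below the 3.01% of all miRNA windows, and the median window of 1.33% was below the 2.61% of all loci with TAPSβ levels of 60% to 80%, which include it. Most windows of the cluster overlap, so the 89 are not separate measurements.

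The lowest TAPSβ levels among separate loci and clusters belonged mostly to windows on annotated gene starts, which 9 of the 10 lowest held. They were led by AC152453.1 on an exon of Hsp90b1, with 1 of 1112 calls modified but only 25.6% of its 254 cytosines listed, AC160528.1 on Ep300 (0.121%), AL772404.1 on Hnrnpa3 (0.141%) and AC156026.1 on Usp7 (0.143%). Of the 10 lowest, 8 carried a clone name and 2 a miRNA name, mmu-mir-1907 on Trps1 (0.196%) and Mir1894 on Ppp1r10 (0.251%), and Mir290 to Mir295 lay above these 10. With each cluster merged, the highest CAPS levels were those of AC132271.1 in an intron of Pgm1, with 11.8% of 397 calls (8.83% to 15.4%), and AC122252.1 in Ergic1, with 11.1% of 306. Their intervals overlapped that of Mir181a-2/Mir181b-2, in which Mir181a-2 alone held 13.6%. The highest PS levels, at the intergenic clone-named loci AC191865.2 (12.2%), AC131111.1 (11.2%) and AC126045.1 (4.44%), came mostly from a few cytosines of high PS fraction. At AC191865.2, 38 of the 39 modified PS calls lay at 1 cytosine, which had 68 of 69 TAPSβ calls modified and no CAPS call. At AC131111.1, 32 of 40 lay at 8 cytosines with 25 of 64 CAPS calls modified. At AC126045.1, 11 of 12 lay at 3 cytosines with 0 of 14 CAPS calls modified, which allows up to 21.4%, and a TAPSβ level of 76.0%, beside 75.7% in the rest of the window.

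Of mature sequences in the table, 23 were encoded at more than 1 well-covered locus. In 19 of them all copies were at 20% or more, in 1 (miR-219a-5p, with 75 of 4999 calls at Mir219-1 and 264 of 3285 at Mir219-2) all were below, and in 3 the copies stood on both sides. The brain miRNA miR-128-3p was encoded by Mir128-1, in an intron of R3hdm1, at 77.2% (71.4% to 82.3%), and by Mir128-2, in an intron of Arpp21, at 10.9% (9.27% to 12.6%). Mir128-2 was lower than its flanks of 74.0% in TAPSβ (exact test, adjusted p = 1.57e-242) and higher in CAPS, 6.08% against 1.39% (adjusted p = 2.66e-05), while Mir128-1 did not pass in either (adjusted p = 0.773 and 1). Of all windows tested, 22.2% were called lower than their flanks in TAPSβ and 4.36% higher in CAPS. Mir128-2 was chosen after its low TAPSβ and high CAPS levels were seen. Its tests reuse the base calls that picked it, so they are not separate support for these levels. miR-129-5p was encoded at 5.00% in Mir129-2 and 21.7% in Mir129-1. miR-692 had 3 copies, at 6.48% in Mir692-2b, 39.4% in Mir692-2a and 78.2% in Mir692-1.

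Host genes were described by the window around their start. Of 117 hosts with a miRNA-named intronic locus and a well-covered start, 95 had a TAPSβ level under 20% there. Over the 117 starts the median was 3.48% and the median CAPS level 1.34%. The share over windows centred on all gene starts was not computed, so 95 of 117 cannot be called particular to these hosts. Of 2-kb tiles that hold an annotated start, but are not centred on it, 35.7% were under 20%. Pairs in which the locus lay more than 2 kb from that start numbered 175. The loci of Mir302b to Mir367 in Larp7 and of Mir181a-2/Mir181b-2 in Nr6a1 are not among them. No start of Larp7 or Nr6a1 was described here, so the pairs do not cover every intronic locus. Of all 633 intronic loci, 464 had a host gene on their own strand. Lying in an intron therefore does not by itself mean being transcribed with that gene. In 88 of the 175 pairs the start was under 20% and the locus at 20% or more. In 4 both were under 20%, and in 83 the start was at 20% or more. Of these 83, 57 were Sfmbt2 loci, whose overlapping windows share 1 host start at 23.1%. Among the 118 pairs of other hosts, 26 had a start at 20% or more, and in 1 of these the locus was under 20%. The 4 pairs with both under 20% were Mir135b in Lemd1, Mir153 in Ptprn2, Mir128-2 in Arpp21 and Mir1967 in Gm20388. The start of Gm20388 lies 4111800 bp from Mir1967, but that of its other host Urb2, at 0.207%, lies 1133 bp away.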

How the data were processed

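The authors trimmed reads with Trim Galore 0.3.1, mapped them to mm9 with BWA mem 0.7.12, marked duplicates with Picard 2.3.0, removed reads of low mapping quality and called CpG modification with asTair. The deposited tables give, per CpG cytosine, the modified fraction and the counts of modified and unmodified base calls; levels here were recomputed from the deposited counts. Windows reached 1000 bp from the hairpin of each miRNA gene of GENCODE M1 on the same build, loci within 10 kb of each other formed a cluster, and each cytosine was counted once in a pooled level. Well covered means at least 100 TAPSβ and 100 CAPS base calls. Exact binomial intervals (95%), Fisher's exact test (the smaller one-sided p doubled, at least 100 calls in window and flanks) and the exact binomial test per cytosine (at least 5 reads, against false-positive rates of 0.0072 for CAPS and 0.0027 for PS) were computed in Python 3.11.15 with scipy 1.17.1, with Benjamini-Hochberg adjustment over all windows and tiles or all tested cytosines and a limit of 0.05, and were tested on simulated data. A level of 0 was given with the limit that 3 counts would set. Reads of neighbouring cytosines are not independent, so p-values are too small and shares called are set beside those of all windows. Genes named are the Mir290 to Mir295 and Sfmbt2 clusters, lists of miRNAs by cluster, locus or tissue, and the 10 loci or clusters with the lowest TAPSβ, the 10 with the highest CAPS and the 3 with the highest PS; Mir181a-2/181b-2, Mir23b/27b and the copies of 1 mature miRNA outside the lists were chosen after their values were seen. The members and lists were chosen with earlier results of these data known.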

Additional observations from a re-analysis of the deposited data

How the results depend on the processing

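Of 54 values recomputed under other settings, 36 stayed within the counting interval of the level or within 1.5 times the count, and 18 moved. The pooled TAPSβ level of 37.1% was 34.9% with 500 bp on each side of the hairpin, 41.2% with 2 kb, 40.1% as the mean over cytosines and 56.6% as the mean over well-covered loci. The CAPS level of 3.01% was 2.87% with 500 bp, 3.20% with 2 kb and 3.19% as the mean over loci, and the PS level of 0.256% was 0.206% without cytosines of high PS fraction (at least 20% of 5 or more PS reads), a fall that their choice fixes. The count of loci with high CAPS, 160, was 101 with 2 kb on each side, 260 at a limit of 5% and 33 at 8%, so it rests on that limit. The count with low TAPSβ, 178, stayed between 135 (limit of 10%) and 223 (limit of 30%). Cytosines called in CAPS, 1060, numbered 637 with at least 10 reads, 3372 when adjusted only over cytosines with a modified read and 580 within 500 bp. Those called in PS, 52, numbered 34 with at least 10 reads, 1421 in that narrower adjustment, 1 without the cytosines of high PS fraction and 34 within 500 bp. The windows of 500 bp and the limit of 10 reads leave fewer cytosines, and the other settings do not all do so. The cause of these moves was not tested. With 1 library per method nothing here measures variation between cultures, and at a median depth of 9 a single cytosine in CAPS or PS seldom reaches a call. No paired analysis was possible because there was 1 library of each kind.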
